A study of Mus musculus with 8 samples.

Results

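The genes described here are the 7 inhibitors of cyclin-dependent kinases that the mouse genome encodes in the CIP/KIP and INK4 families, together with Cdkn3. They were taken by name, as Cdkn1a, Cdkn1b, Cdkn1c, Cdkn2a, Cdkn2b, Cdkn2c, Cdkn2d and Cdkn3, and all 8 were found among the 24112 genes measured. RNA came from LSK cells, the lineage-negative Sca1+ Kit+ fraction of bone marrow in which blood stem cells and early progenitors are concentrated. The cells were sorted from C57BL/6 mice whose blood system had been rebuilt by transplanted marrow. In the WT group (4 libraries) the donor marrow carried Vav-Cre and an intact Traf6. In the KO group (4 libraries) the marrow was Traf6-/- and carried Vav-Cre as well, so both groups expressed the recombinase, which the Vav promoter drives across blood cells, and both had been through transplantation. The ages of the mice are not given. Whether each library is a different mouse is not stated either, so every p-value reflects library-to-library spread that could be technical.

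Cyclin-dependent kinases drive cells through the division cycle once a cyclin is bound. INK4 proteins (p16, p15, p18 and p19, from Cdkn2a, Cdkn2b, Cdkn2c and Cdkn2d) bind CDK4 and CDK6 and keep D-type cyclins from activating them. CIP/KIP proteins (p21, p27 and p57, from Cdkn1a, Cdkn1b and Cdkn1c) bind cyclin and kinase together and restrain CDK2 complexes above all. Long-term blood stem cells are mostly out of cycle, and p57 and p27 are known to help hold them there, while p18 is known to limit their self-renewal. Cdkn3 carries the family's symbol but encodes a phosphatase that acts on CDK2, and its transcript is known to peak late in the cycle.

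Values are RPKM, which divides a gene's reads by its length and by the library's depth, so levels of different genes can be set side by side. Estimated depth was 19.1 to 30.5 M reads in genes per library (M, mega). Libraries differed in how many genes they listed above 0, from 9055 in KO3 and 10674 in KO4, both sequenced in lane 5, and 11169 in WT2 to 12754 to 13689 in the other 5, all in lane 4. Even among the 3943 genes averaging over 20 RPKM, 175 were at 0 in KO3, 61 in KO4, 47 in WT2 and 6 to 20 in each other library, so a 0 is written below as listed at 0 and does not show absence of a transcript. Traf6 was at 14.9, 3.52, 9.40 and 7.10 RPKM in WT1 to WT4 and 0.613, 0.818, 0 and 0.00721 RPKM across KO1 to KO4, without overlap.

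Of 9 genes that mark LSK cells and their stem cell subsets, all passed the filter described below and 9 of 9 had negative log2 differences (KO minus WT), with a median of -0.54 and 3 lower at an unadjusted p under 0.05. Kit ranged over 73.8 to 83.1 RPKM in WT against 50.6 to 113 in KO, and Ly6a, which encodes Sca1, over 7.31 to 11.8 and 6.53 to 10.9. Flt3, a receptor of early progenitors, did not overlap, with a mean of 78.1 ± 13.3 RPKM in WT against 45.0 ± 10.4 in KO (SD, n = 4; log2 difference -0.80 ± 0.23, SE, limma adjusted p = 0.507). The LSK list summed to 612 to 663 RPKM in WT against 434 to 548 in KO. Each marker list of other cells below summed to less, and those sums overlapped between groups. Single markers were not all low: Car1 averaged 86.5 RPKM over the 8 libraries, above Kit (76.6). The neutrophil list (9 genes) summed to 24.2 to 35.4 RPKM in WT against 25.4 to 59.1 in KO, mostly Cxcr2, with S100a9 at 35.7 RPKM in KO4. The B cell list (7 genes) summed to 5.71 to 16.8 and 6.65 to 16.4 RPKM, nearly all of it Cd79b. The T cell list (6 genes) summed to 19.2 to 39.4 and 3.05 to 23.3 RPKM, mostly the kinase gene Lck, at 27.2 ± 8.46 RPKM in WT against 9.29 ± 9.09 in KO (limma unadjusted p = 0.0074, adjusted p = 0.515). Erythroid genes (8, led by Car1 and Hbb-b1) summed to 123 to 242 and 52.5 to 199 RPKM, megakaryocyte genes (7, led by Itga2b and Pf4) to 55.2 to 100 and 50.9 to 146, and stromal or endothelial genes (8, led by Pecam1) to 19.2 to 33.3 and 13.8 to 32.0. Ms4a1, Cd79a and Pax5 of B cells, Cd3g of T cells, Slc4a1, Gp6, Retnlg and Col1a1 were listed at 0 in all 8 libraries. What part these differences have in the members' values was not tested.

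Sequence just upstream of a gene's start is shown for Cdkn1b, the most abundant member whose groups did not overlap, and for Cdkn3, the member tied to late cell cycle. Sequences are from RefSeq on GRCm38.p6, a build other than the mm9 named for these data, and give the 250 bases before the annotated start, 5′ to 3′. Capitals mark matches, on either strand, to CCAAT, to GGGCGG (the core of SP1 sites) and to TTTGAA (the cell cycle homology region, CHR).
Cdkn1b, chr6:134920151-134920400, plus strand: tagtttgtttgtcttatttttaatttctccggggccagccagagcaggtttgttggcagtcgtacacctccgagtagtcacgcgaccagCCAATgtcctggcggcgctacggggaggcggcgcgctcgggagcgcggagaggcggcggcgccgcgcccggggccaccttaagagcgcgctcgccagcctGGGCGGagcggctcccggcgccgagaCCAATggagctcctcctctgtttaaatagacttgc
Cdkn3, chr14:46760291-46760540, plus strand: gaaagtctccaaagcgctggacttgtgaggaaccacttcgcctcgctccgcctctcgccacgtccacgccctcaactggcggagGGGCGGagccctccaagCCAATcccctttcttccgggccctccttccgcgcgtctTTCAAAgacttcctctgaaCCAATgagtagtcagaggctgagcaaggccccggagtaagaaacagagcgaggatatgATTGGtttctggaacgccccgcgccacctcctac

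The Cdkn1b window held 2 CCAAT matches and 1 GGGCGG match. The Cdkn3 window held 3 CCAAT matches, 1 GGGCGG match and 1 TTTGAA match. Of 32851 windows of this length, 33.8% held CCAAT, 32.7% GGGCGG and 15.99% TTTGAA. Of 7 members with a window (Cdkn1c had none in the table), Cdkn3 and Cdkn2b held TTTGAA, and Cdkn3 held it together with CCAAT. The forkhead (FOXO) motif GTAAACA, in 3.17% of windows, and the E-box CACGTG, in 6.02%, were in no member's window. These matches describe letters only, and no binding was measured.

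KO was compared with WT, the contrast the genotypes set up. The test was limma on log2(RPKM + 1) over the 11276 genes that reached 1 RPKM in 4 or more libraries. Of the 8 members 6 passed that filter. Cdkn1c, Cdkn1b and Cdkn2c had the lower values in KO, Cdkn1a overlapped widely, and Cdkn2d and Cdkn3 had log2 differences above 0 that turned negative without WT2. No member passed a Benjamini-Hochberg adjusted p of 0.05, and neither did any other gene tested (0%). Weighting libraries by quality called 1.45% of genes and lane 4 alone 0.0177%, again with no member among them. KO2 had the largest weight, so weighted KO values here and below rest mainly on that library. At an unadjusted p under 0.05 there were 3 members, all lower in KO, against 4.74% of all tested genes lower at that p and 2.77% higher (847 genes in all). The median log2 difference of all tested genes was -0.14, and 61.0% of them were negative, so a member at -0.14 stood level with the average gene. In bulk RNA of a sorted fraction, fewer cells of a type and less RNA per cell cannot be told apart.

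**Figure D1:**
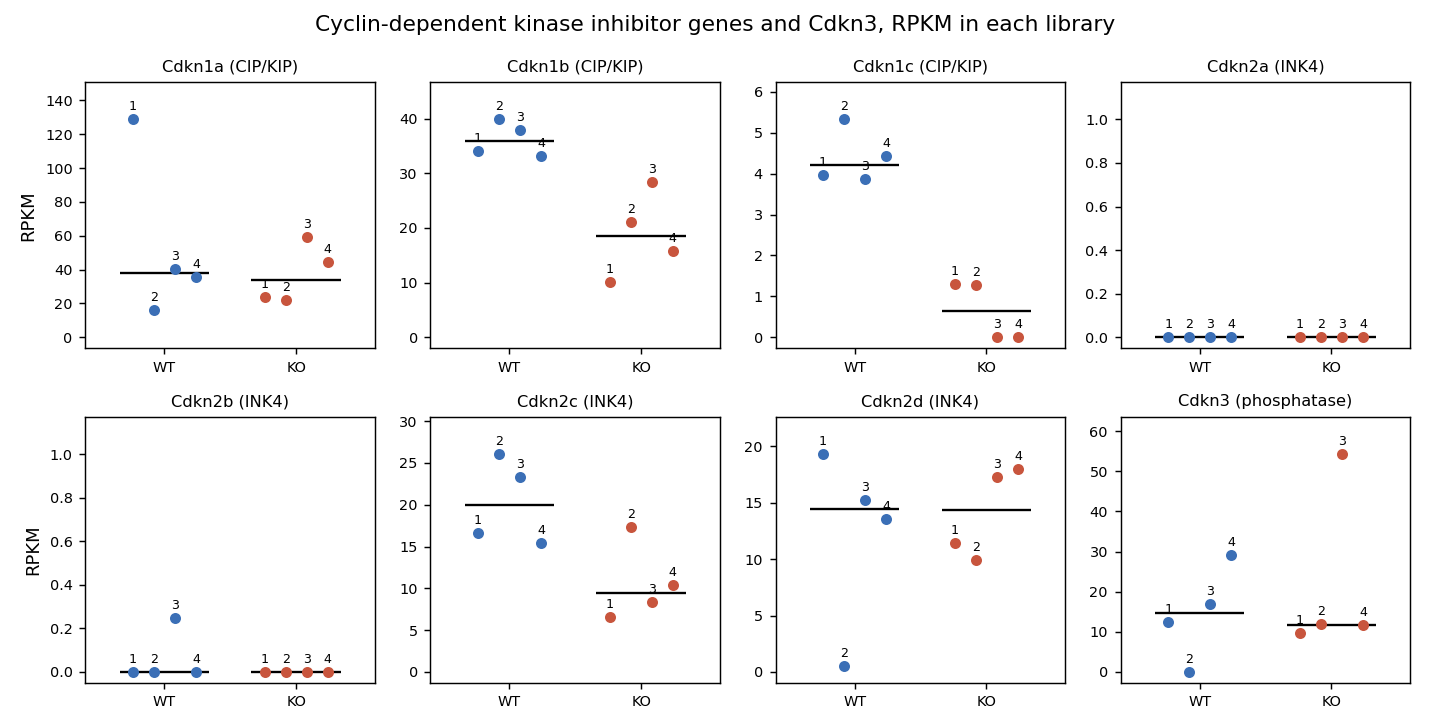
RPKM of each of the 8 genes in the 4 WT and 4 KO libraries, with each library as a point labelled by its number and the group median as a line; vertical scales differ between genes. Cdkn1b and Cdkn1c show no overlap between groups, Cdkn2d and Cdkn3 drop in WT2 alone, and Cdkn2a lies at 0 throughout.

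The CIP/KIP gene Cdkn1c (Entrez 12577), for p57, was the least abundant inhibitor that passed the filter. It was at 3.98, 5.33, 3.86 and 4.43 RPKM in WT1 to WT4 and at 1.303 and 1.28 RPKM in KO1 and KO2, and it was listed at 0 in KO3 and KO4. The WT libraries lay within a narrow band, and every KO library lay below it. The log2 difference (KO minus WT, of log2(RPKM + 1)) was -1.83 ± 0.48 (SE, n = 4 per group; limma unadjusted p = 0.00346, adjusted p = 0.441). With a pseudocount of 0.1 it was -3.58, since 2 KO libraries stood at 0, with quantile normalization -1.17 and with library weights -1.25 and with WT2, KO3 and KO4 left out -1.15. From the estimated depth and a transcript of 1901 bases, the WT values stood for roughly 150 to 210 reads and those of KO1 and KO2 for roughly 76 and 73. Both zeros fell in lane 5, where 271 tested genes (2.40%) were listed at 0 in both libraries while at or above 1 RPKM in all 6 lane 4 libraries. Within lane 4 alone, where KO is KO1 and KO2, the difference was -1.23 (limma adjusted p = 0.331, within 0.0651 to 0.889 over all alternatives).

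Cdkn1b (12576), for p27, was much more abundant. Its WT values were 34.1, 39.9, 37.9 and 33.1 RPKM and its KO values 10.03, 21.1, 28.3 and 15.8 RPKM. The groups did not overlap, and KO spread more widely, with KO1 the lowest and KO3 nearest to WT. The means were 36.2 ± 3.17 and 18.8 ± 7.80 RPKM (SD, n = 4), so KO stood at 51.9% of WT. The log2 difference was -0.997 ± 0.30 (SE; limma unadjusted p = 0.00778, adjusted p = 0.515). Within lane 4 it was -1.25 (limma adjusted p = 0.278, within 0.0716 to 0.889 over all alternatives). Cdkn1b was listed above 0 in every library, so unlike Cdkn1c its difference rests on no zero. Groups failed to overlap, with KO the lower, in 3.88% of tested genes, 437 in all, and Cdkn1b and Cdkn1c were 2 of them. Non-overlap with KO the higher was found in 2.05%, including no member, and in either direction in 5.92%.

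Cdkn1a (12575), for p21, the inhibitor that p53 is known to induce, had the highest median of the members in both groups. It was at 129, 16.2, 40.2 and 35.7 RPKM in WT against 23.7, 21.8, 59.3 and 44.4 RPKM in KO. WT1 was the highest of the 8 libraries and WT2 the lowest, so the WT group enclosed the whole KO range. The log2 difference was -0.28 ± 0.57 (SE; limma adjusted p = 0.906), and without WT1 it turned to 0.25. With library weights it was -0.9998, and leaving out WT2, KO3 and KO4 gave -1.29 (limma adjusted p = 0.214 and 0.359, within 0.214 to 0.990 over all alternatives). In lane 4 alone it was -0.85, and KO1 and KO2 lay below WT1, WT3 and WT4 but above WT2. WT1 was at least 2 times as high as each other WT library in 66 tested genes (0.585%) with a mean of at least 5 RPKM. It was at least 2 times as high as each of the other 7 libraries in 23 (0.204%). Cdkn1a was among both.

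In the INK4 family only Cdkn2c and Cdkn2d were found at appreciable levels. Cdkn2a (12578), which encodes both p16 and the p53 activator p19ARF from 1 locus, was listed at 0 in all 8 libraries, and a single value per gene could not have told the 2 products apart. Cdkn2b (12579), for p15, a known target of TGF-β signalling, was listed at 0 in 7 libraries and at 0.248 RPKM in WT3, roughly 6.9 reads. Neither passed the filter and no difference was tested for either. Their neighbour Mtap, on the same stretch of the chromosome, was at 28.7 ± 11.3 RPKM in WT against 33.7 ± 8.77 in KO (SD, n = 4; log2 difference 0.28 ± 0.34, SE, limma adjusted p = 0.823), so a gene of that region was detected in every library.

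Cdkn2c (12580), for p18, was at 16.6, 26.1, 23.3 and 15.4 RPKM in WT against 6.56, 17.3, 8.42 and 10.4 RPKM in KO. KO2 lay above WT1 and WT4, and the other 3 KO libraries lay below all of WT. The means were 20.3 ± 5.16 and 10.7 ± 4.68 RPKM (SD, n = 4), KO standing at 52.5% of WT. The log2 difference was -0.92 ± 0.34 (SE; limma unadjusted p = 0.0218, adjusted p = 0.627). In lane 4 alone the difference was -0.83 (limma adjusted p = 0.478, within 0.440 to 0.889 over all alternatives). The unadjusted p no longer lay under 0.05 there, with a lane covariate, or without WT2, WT3 or KO1. Nor did it with library weights (limma unadjusted p = 0.207) or without WT2, KO3 and KO4 together (0.104). With library weights the difference was -0.40, while that of Cdkn1b was -0.91.

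Cdkn2d (12581), for p19INK4d, was at 19.3, 0.531, 15.3 and 13.6 RPKM in WT against 11.4, 9.95, 17.3 and 18.0 RPKM in KO. WT2 stood far below the other 7 libraries, which overlapped across groups. The log2 difference of 0.67 ± 0.74 (SE; limma adjusted p = 0.811) became -0.20 without WT2.

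Cdkn3 (72391) followed the same course in WT2. It was at 12.3, 0, 16.9 and 29.1 RPKM in WT against 9.70, 11.9, 54.3 and 11.6 RPKM in KO. WT2 was listed at 0 and KO3 stood highest, while the other 3 KO libraries lay below the other 3 WT libraries. The log2 difference of 0.94 ± 1.02 (SE; limma adjusted p = 0.809) became -0.13 without WT2 and 0.39 without KO3. Over all genes tested, 58 (0.514%) were under 1 RPKM in WT2 and at or above 5 RPKM in the other 7 libraries, Cdkn2d and Cdkn3 among them. Mitotic genes were mixed in WT2: none of the 18 on the G2 and mitosis list was listed at 0 there, Aurkb was at its lowest (27.7 RPKM, against 39.4 to 67.2 in the other libraries) and Top2a at its highest (228, against 169 to 207).

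**Figure D2:**
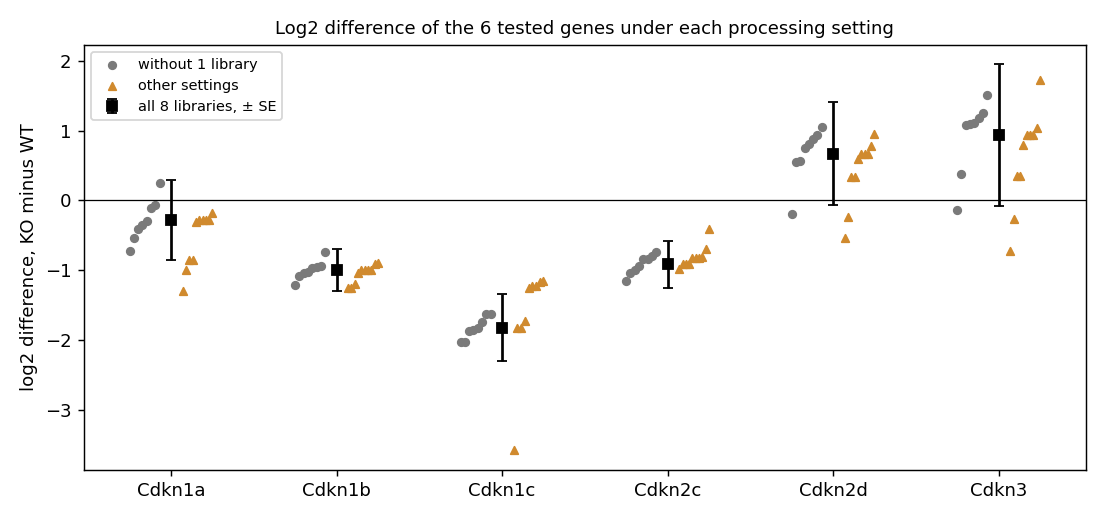
Log2 difference (KO minus WT) of the 6 tested genes: black squares with SE bars use all 8 libraries, grey circles leave out 1 library each and orange triangles are the other processing settings. Cdkn1b, Cdkn1c and Cdkn2c stay below 0 in every setting shown, whereas Cdkn1a, Cdkn2d and Cdkn3 lie on both sides of 0.

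By median level in WT the order was Cdkn1a (38.0 RPKM), Cdkn1b (35.99), Cdkn2c (19.9), Cdkn3 (14.6), Cdkn2d (14.4) and Cdkn1c (4.20), with Cdkn2a and Cdkn2b at 0. Cdkn1b exceeded Cdkn2c in 4 of 4 WT libraries. Cdkn1a exceeded Cdkn1b in 3 of 4, and Cdkn3 exceeded Cdkn2d in 2 of 4, so those neighbours were not set apart beyond their spread. In KO the order was Cdkn1a (34.1), Cdkn1b (18.5), Cdkn2d (14.3), Cdkn3 (11.8), Cdkn2c (9.43) and Cdkn1c (0.640). Cdkn1a exceeded Cdkn1b in 4 of 4 KO libraries and Cdkn2c exceeded Cdkn1c in 4 of 4, but Cdkn1b exceeded Cdkn2d in only 2 of 4. By median Cdkn2c stood above Cdkn3 and Cdkn2d in WT and below both in KO, but not in every library: it lay below Cdkn2d in WT1, below Cdkn3 in WT4 and above both in KO2.

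The makeup of each family can be read within a library, where scaling cancels. Cdkn1a and Cdkn1b together made up nearly all CIP/KIP transcript in every library. Cdkn1c gave 2.38% to 8.68% of the summed CIP/KIP RPKM in WT, 3.72% and 2.89% in KO1 and KO2, and 0% in KO3 and KO4. Its share in KO1 and KO2 thus lay within the WT range, whose low end was WT1 with its high Cdkn1a. The Cdkn1b share was 20.4%, 65.0%, 46.2% and 45.2% in WT against 28.6%, 47.8%, 32.3% and 26.2% in KO. Of INK4 transcript, Cdkn2c gave 46.2%, 98.0%, 60.0% and 53.2% in WT against 36.6%, 63.5%, 32.7% and 36.8% in KO. KO1, KO3 and KO4 lay below every WT library in that share, and KO2 lay among them. The inhibitors of both families summed to 88.0 to 203 RPKM in WT against 52.98 to 113 RPKM in KO, ranges that overlapped.

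**Figure D3:**
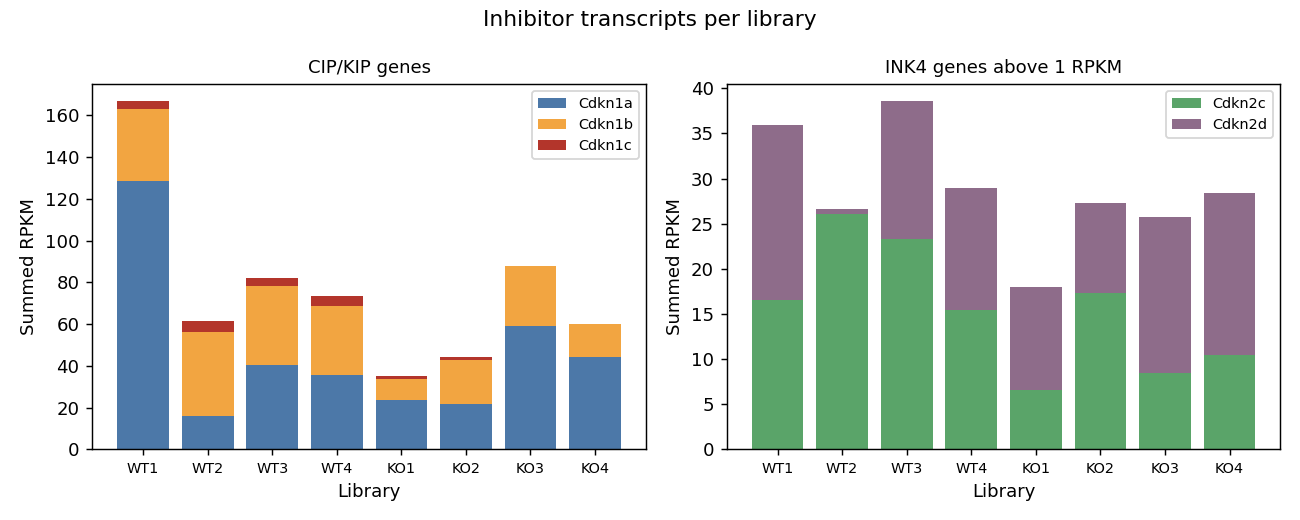
Stacked RPKM of the CIP/KIP genes (left) and of Cdkn2c and Cdkn2d (right) in each library. Cdkn1c is a thin layer that is missing in KO3 and KO4, WT1 is dominated by Cdkn1a, and WT2 has hardly any Cdkn2d.

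Members varied together in a few pairs. Over the 8 libraries Cdkn1b and Cdkn2c had a Pearson r of 0.79, and 0.48 once the group means were removed. Cdkn2d and Cdkn3 had an r of 0.89, and Cdkn1a and Cdkn2d of 0.69. Cdkn1c had an r of 0.74 with Cdkn2c and 0.61 with Cdkn1b, which became 0.21 and -0.44 once the group means were removed. These values are descriptions over 8 points that share libraries and depth, and WT2 was the lowest library for Cdkn1a, Cdkn2d and Cdkn3.

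For each tested member the 3 genes (2 for Cdkn1b) of most similar pattern were taken from those with a mean of at least 5 RPKM (8668 or 8669 genes), with r over 8 libraries given as a description. Being the highest among so many genes, these r are high by selection. Closest to Cdkn1a was Smad7, an inhibitor of TGF-β signalling (r = 0.98), at 31.5, 5.23, 13.2 and 9.33 RPKM in WT against 6.11, 7.06, 13.7 and 10.3 in KO, followed by Lrrc8c, a subunit of a volume-regulated anion channel, and Cep43. Closest to Cdkn1b were the imprinted RNA Peg13 (0.97) and Crip1. Peg13 was at 28.7, 27.1, 27.5 and 23.6 RPKM in WT against 9.93, 17.1, 20.2 and 16.95 in KO, and so shared the low point in KO1. Closest to Cdkn1c were Gm10406 (0.99), Gm10409 and 2700099C18Rik, the first pair listed at 0 in KO3 and KO4 and the last at 0.0347 and 0.0309 RPKM there. Gm10406 and Gm10409 are predicted genes with similar copies, so their reads may be split. Closest to Cdkn2c were the Mediator subunit Med12 (0.96), the integrin adaptor Tln1 and the BMP effector Smad5. The DNA repair gene Ercc6 (0.99), Mlst8 and Akip1 were closest to Cdkn2d, and Clcn7 (0.98), Mapk8ip3 and the transcriptional repressor Rest to Cdkn3. All 6 were low in WT2, with Mlst8 and Akip1 listed at 0 there.

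**Figure D4:**
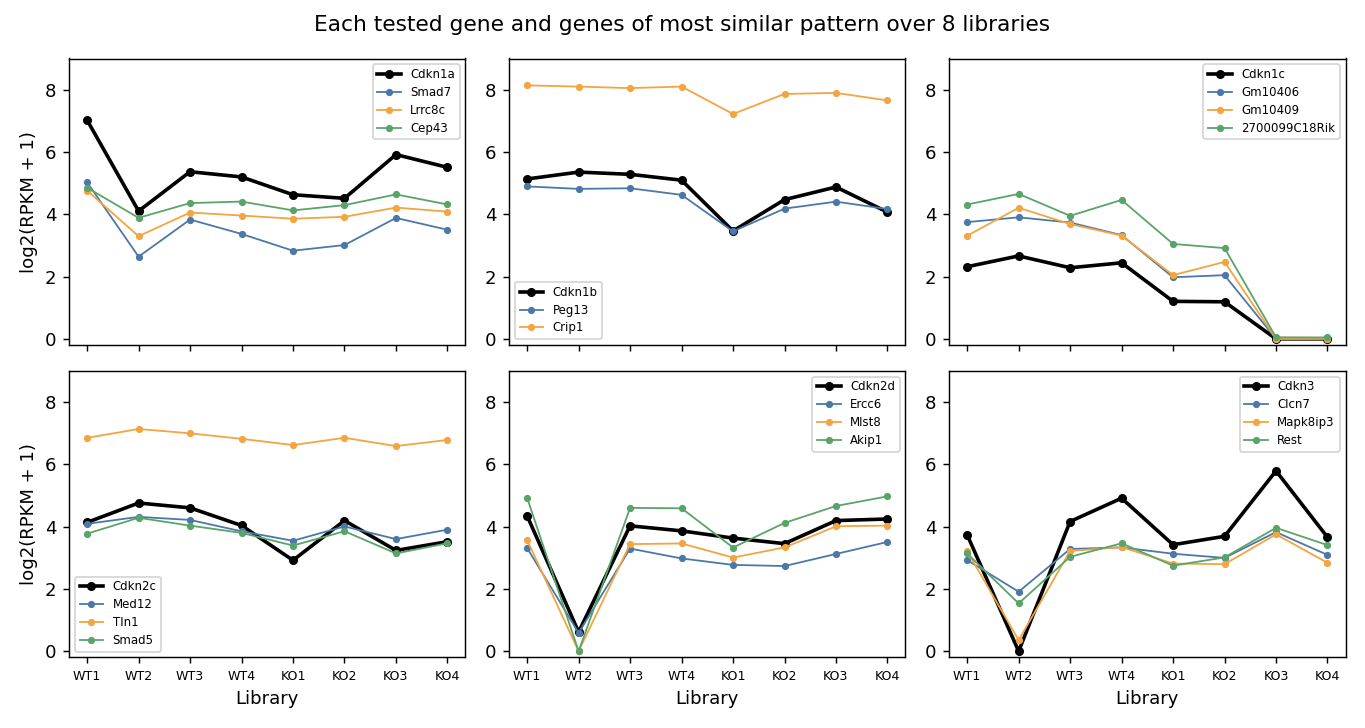
log2(RPKM + 1) by library for each tested gene (black) and the 3 genes (2 for Cdkn1b) with the highest Pearson r to it (colours). The shared features are a peak in WT1 for Cdkn1a, a low point in KO1 for Cdkn1b, zeros or near zeros in KO3 and KO4 for Cdkn1c and a low point in WT2 for Cdkn2d and Cdkn3.

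The genes around the inhibitors are given as counts from lists drawn up from background knowledge. Earlier results of these data were known by then, so the counts are descriptions and no separate evidence. No gene of any list passed the threshold in limma on equally weighted libraries. With library weights 4 of the genes named below did, Skp1 (limma adjusted p = 0.0457), Plk2 (0.0244), Sesn1 (0.0270) and Procr (0.0242). Some genes counted below at an unadjusted p under 0.05 lay above it without WT1. The unadjusted limma p was then 0.119 for Myc, 0.113 for Bub1b, 0.0938 for Gfi1, 0.0803 for Tfdp1 and 0.0738 for Skp1. The kinases and cyclins that the inhibitors bind had a median log2 difference of -0.08 over 12 tested genes, near the -0.14 of all genes, with 0 higher and 1 lower at an unadjusted p under 0.05. Cdk4, the main INK4 target, was by far the most abundant at 543 ± 30.5 RPKM in WT against 611 ± 68.0 in KO (SD, n = 4; log2 difference 0.17 ± 0.13, SE), and Cdk6 was at 88.9 ± 16.1 and 95.4 ± 21.2. Cdk2, the main CIP/KIP target, was at 56.5 ± 13.5 and 37.2 ± 12.6 RPKM (-0.62 ± 0.29). The D-type cyclin Ccnd1 was the gene at an unadjusted p under 0.05, with 21.7, 24.5, 20.7 and 31.1 RPKM in WT against 11.8, 14.3, 16.7 and 15.9 in KO (-0.70 ± 0.24, adjusted p = 0.623), with no overlap.

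Downstream, the RB and E2F genes had a median of -0.19 over 13 tested genes, with 1 higher and 0 lower at an unadjusted p under 0.05. Tfdp1, the partner of E2F factors, was at 108 ± 7.74 RPKM in WT against 143 ± 18.5 in KO (0.40 ± 0.16, limma adjusted p = 0.634), and Rb1, the retinoblastoma protein gene, at 10.46 ± 2.96 and 5.57 ± 1.57 (-0.80 ± 0.38). Neither overlapped between groups. E2f4 was at 61.7 ± 8.32 and 67.5 ± 16.5 RPKM. Genes of S phase had a median of -0.10 over 14 genes and those of G2 and mitosis of -0.06 over 18, each with 1 higher and 0 lower at an unadjusted p under 0.05. Cdc6, which loads the replicative helicase, was at 15.7 ± 1.27 RPKM in WT against 22.5 ± 2.42 in KO (0.49 ± 0.21), and the spindle checkpoint kinase gene Bub1b at 36.2 ± 2.57 and 48.0 ± 5.14 (0.40 ± 0.18). Mki67, the proliferation marker Ki-67, went the other way, at 86.8 ± 6.47 and 67.1 ± 11.5 RPKM (-0.38 ± 0.18), and Top2a was at 201 ± 22.1 and 180 ± 9.68. Rrm2, Mcm7, Pcna and Ube2c overlapped between the groups, at 54.7 ± 10.2, 262 ± 43.7, 244 ± 60.9 and 133 ± 34.2 RPKM in WT against 83.2 ± 26.2, 245 ± 26.1, 238 ± 38.1 and 132 ± 37.0 in KO. Both list medians lay close to that of all genes.

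Upstream, genes listed as activators of the inhibitors had a median of -0.19 over 13 tested genes, with 1 higher and 1 lower at an unadjusted p under 0.05. The lower was Tgfbr2, the type II receptor of TGF-β, a known inducer of p57 and p15. Tgfbr2 was at 24.3, 27.5, 22.4 and 21.1 RPKM in WT against 8.13, 14.7, 4.55 and 12.0 in KO, with no overlap (-1.29 ± 0.34, SE; limma adjusted p = 0.450; -0.77 with library weights). The ligand gene Tgfb1 lay on the other side, at 179 ± 16.1 RPKM in WT against 223 ± 22.3 in KO (0.32 ± 0.15). The higher was Gfi1, at 6.65 ± 4.38 and 16.6 ± 8.36 RPKM (1.42 ± 0.63, and 0.78 without WT1, where it stood at 0.628 RPKM), and Trp53 was at 61.1 ± 8.70 and 66.5 ± 15.0. Known repressors and their partners had a median of -0.21 over 10 tested genes, with 1 higher and 0 lower at that p. It was Myc, at 99.2 ± 23.0 RPKM in WT against 142 ± 28.3 in KO (0.52 ± 0.22, limma adjusted p = 0.645). Zbtb17, the Myc partner MIZ1, was at 6.33 ± 3.22 and 11.05 ± 2.22 RPKM, and the Polycomb gene Ezh2 at 88.4 ± 12.0 and 78.3 ± 31.3. Among 12 genes that degrade the inhibitors the median was -0.03, with 0 higher and 1 lower at that p, and the SCF ligase subunit Skp1 was that gene, at 247 ± 38.9 and 180 ± 19.6 RPKM (-0.44 ± 0.17). Cks1b, which presents p27 to the ligase, was at 287 ± 36.4 and 256 ± 20.8 RPKM, and Cul1 at 37.5 ± 6.76 and 27.7 ± 4.90.

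Other p53 targets had a median of -0.68 over 14 tested genes of 18, with 0 higher and 2 lower at an unadjusted p under 0.05. Plk2 was at 88.2, 27.5, 32.5 and 17.9 RPKM in WT against 2.22, 4.40, 3.54 and 24.8 in KO (-2.41 ± 0.67, SE; limma adjusted p = 0.490), with its highest value in WT1, as for Cdkn1a. Sesn1 was at 42.9 ± 7.04 RPKM in WT against 26.6 ± 5.87 in KO (-0.68 ± 0.23), without overlap. Ei24 was at 35.9 ± 4.62 and 41.1 ± 25.5 RPKM. Some of that list rests on zeros in lane 5: Bax was at 25.1 to 56.5 RPKM in the lane 4 libraries and at 0 and 0.05 in KO3 and KO4.

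Stem cell dormancy genes had a median of -0.99 over 15 tested genes of 16, 14 of them negative, with 0 higher and 7 lower at an unadjusted p under 0.05. Tob1, an antiproliferative factor, was at 22.8, 30.4, 11.4 and 12.1 RPKM in WT against 4.02, 7.51, 0 and 4.58 in KO (-2.25 ± 0.66, SE; limma adjusted p = 0.515; -1.51 in lane 4 alone and -1.11 with library weights). Of the 16 genes 6 were listed at 0 in KO3. The list's summed level was 597 to 1330 RPKM in WT against 186 to 588 in KO, with KO4 close to WT4. Much of that sum was Nr4a1, at 1010, 360, 406 and 195 RPKM in WT against 53.1, 86.6, 276 and 262 in KO. The gap between the groups' sums thus leaned on Nr4a1. Txnip, an inhibitor of thioredoxin, was at 45.3, 144, 185 and 191 RPKM in WT against 41.9, 75.3, 33.5 and 65.7 in KO (-1.25 ± 0.46). Procr, the endothelial protein C receptor, was at 19.6 ± 6.40 and 7.92 ± 4.45 RPKM (-1.27 ± 0.38), and the orphan nuclear receptor Nr4a1 at 493 ± 357 and 169 ± 116 (-1.60 ± 0.63). The list was drawn up knowing that stem cell genes were low in these KO libraries, so its median is no separate evidence. Genes of granulocyte-monocyte progenitors (GMP) lay on the other side: 10 of 10 had positive differences. Of these, 8 had an unadjusted limma p under 0.05 (smallest adjusted p = 0.451), Gfi1, also among the activators, being one. Their summed level was 624 to 1864 RPKM in WT against 2148 to 8050 in KO. It was highest in KO1, where Cdkn1b and Cdkn2c were lowest but Cdkn1c had its highest KO value (1.303 RPKM). KO4 had the lowest KO sum (2148), yet its Cdkn1b (15.8 RPKM) lay below that of KO2 and KO3. What part this difference in progenitor markers has in the values of Cdkn1b, Cdkn1c and Cdkn2c was not tested.

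**Figure D5:**
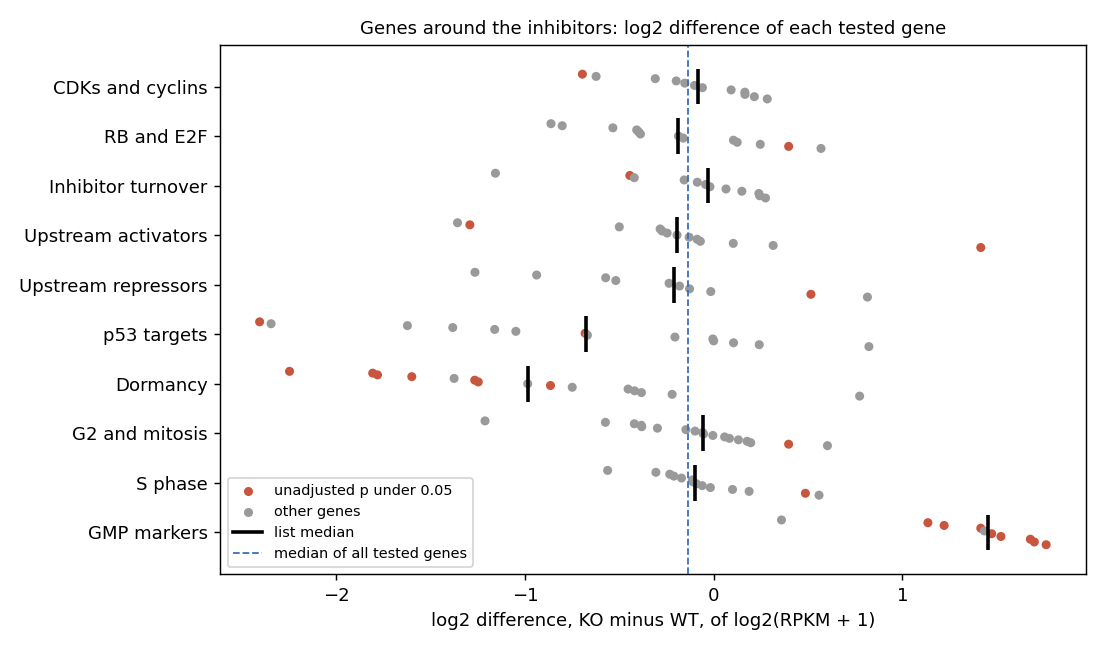
Log2 difference (KO minus WT) of each tested gene in 10 lists around the inhibitors; red points have an unadjusted limma p under 0.05, black bars are list medians and the dashed line is the median of all tested genes (-0.14). Dormancy genes lie mostly to the left and GMP markers to the right, while cyclins, S phase and mitosis genes centre near the dashed line.

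Cdkn1c lies in an imprinted domain and is expressed from the maternal copy, while the antisense RNA Kcnq1ot1 comes from the paternal one. Of 9 other genes of that domain 7 were tested, with 0 at an unadjusted p under 0.05 in either direction and a median of -0.19. Kcnq1ot1 was at 2.14, 2.91, 1.74 and 1.13 RPKM in WT against 1.01, 1.58, 1.25 and 3.41 in KO, overlapping. Nap1l4 was at 75.3 ± 7.81 and 64.7 ± 11.1 RPKM and Cd81 at 127 ± 27.4 and 112 ± 45.7 (SD, n = 4). KO3 and KO4, in which Cdkn1c was listed at 0, thus had reads from genes nearby, though Phlda2 was listed at 0 in KO3 and WT4, and Slc22a18 in KO4.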

How the data were processed

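Poly(A) RNA of 8 LSK libraries, 4 WT and 4 KO, was grouped by title. TopHat, edgeR and mm9 are named without versions, per the submitters' processing notes. How reads were counted, and against which annotation, is not given in the sources used here. RPKM values were deposited by the authors, 1 per Entrez gene; the unit is inferred from the values, because values times transcript length sum to 1.14 to 1.17 M in each library. Of 24112 IDs 24029 (99.7%) were matched to symbols in a GRCm38.p6 RefSeq table. Depth was estimated from steps between values up to 0.2 RPKM: 63.0% to 74.3% of the 35 to 73 values compared were whole reads within 0.05, so it is approximate and a count test was not made.

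The 11276 genes reaching 1 RPKM in 4 or more libraries were tested as log2(RPKM + 1) with limma 3.58.1 in R 4.3.3 (eBayes, trend and robust), adjusted over all of them. That filter can pass a gene through WT alone, as for Traf6; Cdkn1c passed through WT, KO1 and KO2. The test was checked on simulated data. Replicate numbers did not pair libraries. Named genes are the members, Traf6, each list's 2 of smallest p and the 2 of highest mean, and the 3 most similar genes per member (1 for Cdkn1b is not reported here); Bax, Kcnq1ot1, Phlda2, Slc22a18, Aurkb and the LSK and mature cell markers were added with their values known. The members and lists were chosen with earlier results of these data known.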

Additional observations from a re-analysis of the deposited data

Results flagged for a closer look

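A library was singled out where its gap to the nearest of its group exceeded Dixon's 95% critical value for 4 samples, 0.829 of the range. Over 15 groups checked (the 8 members and Traf6, leaving out groups at one value), chance gives about 1 in 20. Cdkn3 stood apart in KO3 at 54.3 RPKM, against 9.70 to 11.9 in the other KO libraries. Cdkn2b stood apart in WT3 at 0.248 RPKM, because the other 3 WT libraries listed it at 0.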

How the results depend on the processing

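In 18 alternatives (17 for Cdkn1c, which a mean of at least 5 RPKM removed) no member passed the threshold. Cdkn1b (-1.25 to -0.75), Cdkn1c (-3.58 to -1.15) and Cdkn2c (-1.16 to -0.40) kept their sign. Leaving out 1 library each moved Cdkn1a from -0.72 to 0.25 (without WT1), Cdkn2d from -0.20 (without WT2) to 1.05 and Cdkn3 from -0.13 (without WT2) to 1.51. With library weights Cdkn1a was -0.9998, Cdkn2d -0.23 and Cdkn3 -0.27, and without WT2, KO3 and KO4 they were -1.29, -0.54 and -0.72. Estimated depth is approximate, so read numbers behind low values are too. Genes called numbered 0 with all libraries, 0 to 2 leaving out 1 (2 without KO3), 2 in lane 4 alone, 3 without WT2, KO3 and KO4, and 164 with library weights, in which KO3 had a weight of 0.137. Unadjusted p under 0.05 held for 1994 genes with weights and 1582 without WT2, KO3 and KO4, against 847 with all libraries weighted equally. The cause was not tested.

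Weights also took Traf6 (limma adjusted p = 0.00785), Skp1 (0.0457), Plk2 (0.0244), Sesn1 (0.0270) and Procr (0.0242) past the threshold. Of 36 other named genes, 9 changed sign somewhere. Leaving out 1 library spanned -0.045 to 0.21 for Cdk6, -0.031 to 0.21 for E2f4, -0.021 to 0.25 for Trp53, -0.36 to 0.36 for Ei24, -0.18 to 0.15 for Ube2c, -0.18 to 0.12 for Pcna and -0.021 to 0.49 for Mtap. Median centring gave 0.10 for Ei24 and Ube2c, 0.013 for Mcm7 and 0.087 for Pcna. A lane covariate and lane 4 alone gave 0.0043 for Ei24, 0.042 for Mcm7 and 0.063 for Pcna. Library weights gave 0.10 for Ei24 and 0.056 for Mcm7, and leaving out WT2, KO3 and KO4 gave 0.018 for Cks1b, 0.066 for Ei24 and 0.10 for Mcm7.

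Same-numbered libraries had correlations of deviations from -0.08 to -0.04, so the numbers do not pair them. With the replicate block 0 genes were called and 705 had an unadjusted p under 0.05, and the members' differences were as before (Cdkn1a -0.28, Cdkn1b -0.997, Cdkn1c -1.83, Cdkn2c -0.92, Cdkn2d 0.67, Cdkn3 0.94). No WT library correlated best with its own number. The quantile scaling moved the median of all genes from -0.14 to -0.00084, and the split of unadjusted calls from 312 higher and 535 lower to 448 and 424.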
